A study of Mus musculus with 2 samples.

Results

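Transcription factors and cofactors that act in the adrenal cortex around Nr5a1 were followed through long-read RNA sequencing libraries of the adrenal gland of newborn mice. Their 9 genes were Nr5a1, Nr0b1, Gata6, Gata4, Wt1, Cited2, Tcf21, Nr2f1 and Nr2f2, chosen by name among the 18053 annotated genes with at least 1 read, and all 9 had reads in both libraries. The tissue came from male B6CASTF1/J mice aged 4 days, first-generation offspring of C57BL/6J and CAST/EiJ parents, with no treatment and no engineered allele named in the labels. The design holds 1 group with 2 biological replicates and 1 library from each, so levels and splice forms within the gland were described and the libraries were compared with each other. The labels leave the animals unclear: the tissue text of replicate 2 names male 04 and that of replicate 1 names male 03, but the library text names male 03 for both, and both carry the same donor number. Differences between libraries may therefore be technical.

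Nr5a1 encodes steroidogenic factor 1, a nuclear receptor that adrenal and gonadal steroid cells need to form and to make their enzymes. Wt1 and the cofactor gene Cited2 act with it when the adrenal primordium forms, Nr0b1 encodes the corepressor DAX-1, and Gata6 and Gata4 encode zinc finger factors of steroid-producing tissues. Tcf21, a basic helix-loop-helix factor gene, and Nr2f1 and Nr2f2, which encode the orphan receptors COUP-TFI and COUP-TFII, are known from capsular, stromal and other mesenchymal cells.

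Replicate 1 held 707726 reads and replicate 2 held 832552, of which 688436 and 810818 were assigned to mouse genes and the rest to spike-ins. A level is given as CPM, the reads of a gene per 1000000 mouse reads. A long read comes from 1 cDNA molecule, which may be a copy made by PCR, so CPM was compared between genes without division by length. A single read equals 1.45 CPM in replicate 1 and 1.23 CPM in replicate 2, and the level of 3 reads, taken as the floor, is 4.36 and 3.70 CPM. All 5 cortex markers and all 6 medulla markers had reads in both libraries, at 45123 and 30754 CPM and at 12501 and 9291 CPM in sum. The libraries stood apart in 8 liver markers, with sums of 216 CPM (replicate 1) and 11263 CPM (replicate 2). Capsule and mesenchyme markers summed to 797 and 1411 CPM with 6 of 8 found in both libraries, and Gli1 and Pdgfra were at 0 reads in replicate 1.

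The 9 genes spanned more than 2 orders of magnitude, from Nr5a1 at 572 ± 141 CPM (mean ± SD, n = 2 throughout) to Gata4 at 2.69 ± 0.31 CPM. Cited2 followed Nr5a1 at 172 ± 4.69 CPM. Gata6 at 108 ± 18.1 CPM, Nr0b1 at 108 ± 26.6 CPM and Tcf21 at 91.4 ± 22.8 CPM came next. The values of Gata6 and Nr0b1 overlapped between the libraries, and so did those of Nr0b1 and Tcf21, so these neighbours in the order did not differ beyond their spread. Nr2f2 at 50.9 ± 8.28 CPM, Nr2f1 at 31.7 ± 5.78 CPM and Wt1 at 9.0 ± 5.76 CPM formed the lower end above Gata4. For these lower neighbours, from Nr2f2 down to Gata4, the exact Poisson 95% intervals overlapped in at least 1 library, although the values themselves did not. Together the 9 genes gave 1283 and 1006 CPM.

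**Figure D1:**
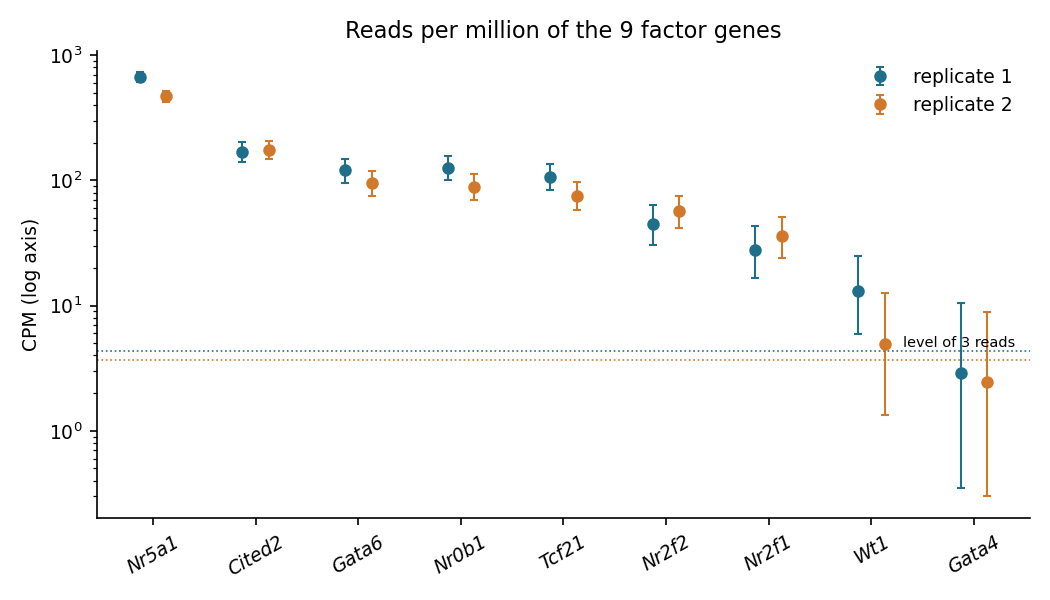
CPM of each of the 9 genes (vertical log axis) in replicate 1 and replicate 2, ordered by mean, with exact Poisson 95% intervals of the reads as bars and the level of 3 reads as dotted lines. Nr5a1 stands above the others at 671 and 472 CPM, and both values of Gata4 lie below the dotted lines at 2 reads each.

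Nr5a1 (ENSMUSG00000026751.14, mm10 chromosome 2, 38692656 to 38714542, minus strand) had 462 reads in replicate 1 and 383 in replicate 2, or 671 and 472 CPM. It ranked 220 of the 18053 genes by mean level. Replicate 1 was the higher library, and the 95% intervals of 611 to 735 CPM and 426 to 522 CPM did not overlap. The log2 ratio of replicate 2 to replicate 1 was −0.51 (standard error from counting 0.10), with an adjusted p of 1.55e-05 in a two-sided Fisher's exact test against all other mouse reads (Benjamini-Hochberg over 8276 genes). Calls needed both an adjusted p below 0.05 and a ratio no smaller than 1 on the log2 scale, in either direction, so Nr5a1 passed on p and not on size. On p alone 656 of the 8276 genes passed, or 7.93%. Only 1 library stood on each side, so this test compares the libraries and not the animals. In a whole gland, fewer cells of a type and less RNA per cell cannot be told apart.

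Counts of 2 genes within 1 library can be set against each other without any scaling. For each read of Nr0b1 there were 5.31 reads of Nr5a1 in replicate 1 (exact 95% interval 4.22 to 6.76) and 5.32 in replicate 2 (4.13 to 6.94). The same ratio to Tcf21 was 6.24 and 6.28, and to Gata6 it was 5.57 and 4.97. For these 3 genes the values of the libraries lay close together when all reads were counted. Without reads named Genomic, which removes single-exon fragments of Nr5a1 from replicate 2 and not from replicate 1, the ratio to Nr0b1 was 5.37 and 4.25. The ratio to Cited2 was 3.98 (3.24 to 4.93) in replicate 1 and 2.70 (2.22 to 3.29) in replicate 2. The ratio to Nr2f2 was 14.9 and 8.33, and that to Nr2f1 was 24.3 and 13.2, both lower in replicate 2 with intervals that overlapped. Against the summed reads of 14 genes known as Nr5a1 targets, Nr5a1 had 13.9 reads per 1000 in replicate 1 (12.6 to 15.2) and 14.3 in replicate 2 (12.9 to 15.8). Among these targets, Cyp21a1 had 12570 and 7862 reads and Cyp11a1 had 8030 and 9240. The like ratio to the sum therefore does not hold for each target. The ratios within a library were chosen after the values were seen and were not tested.

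The reads of Nr5a1 fell into 46 transcript structures, of which 17 were found in both libraries and 22 rested on 1 read. The annotated form of 7 exons, Nr5a1-201, had 239 and 158 reads. Among complete forms, meaning known models and models with a new combination or a new splice site, it made up 74.7% (95% Wilson interval 69.7 to 79.1) and 69.6% (63.3 to 75.2). That difference was not called in the test of leading isoforms (two-sided Fisher's exact test, adjusted p 0.996), in which 10 of 2440 genes, or 0.41%, were called. Single-exon fragments numbered 63 in replicate 1 and 77 in replicate 2. The deposited models name them an incomplete splice match (ISM) in replicate 1, with a model of 1609 bases, and Genomic in replicate 2, with a model of 5 bases, so the coordinates do not show whether they cover the same stretch. A further 58 and 51 reads began in exon 4, and 306 and 221 reads carried a first exon spliced to exon 2.

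More than 1 first exon of Nr5a1 was in use in both libraries, at shares with overlapping intervals. Of the reads with a first exon spliced to exon 2, 256 of 306 in replicate 1 and 178 of 221 in replicate 2 used exon 1 of Nr5a1-201 (38714357 to 38714542), or 83.7% (79.1 to 87.4) and 80.5% (74.8 to 85.2). The others began in intron 1. First exons that start where Nr5a1-202 starts, 2308 bases downstream of the Nr5a1-201 start, had 33 and 28 reads, or 10.8% (7.78 to 14.8) and 12.7% (8.91 to 17.7). Only 7 and 6 of these used the splice end of Nr5a1-202, at 38712006. The unannotated end at 38711762 had 13 and 18 reads, and the one at 38712158 had 13 and 4. Another start, 1731 bases downstream and not annotated, led to a first exon from 38712811 to 38712335 with 12 and 11 reads. The start codon lies in exon 2, so all 8 first exons lie upstream of it. Start positions are those of the deposited models, and single reads may begin elsewhere.

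**Figure D2:**
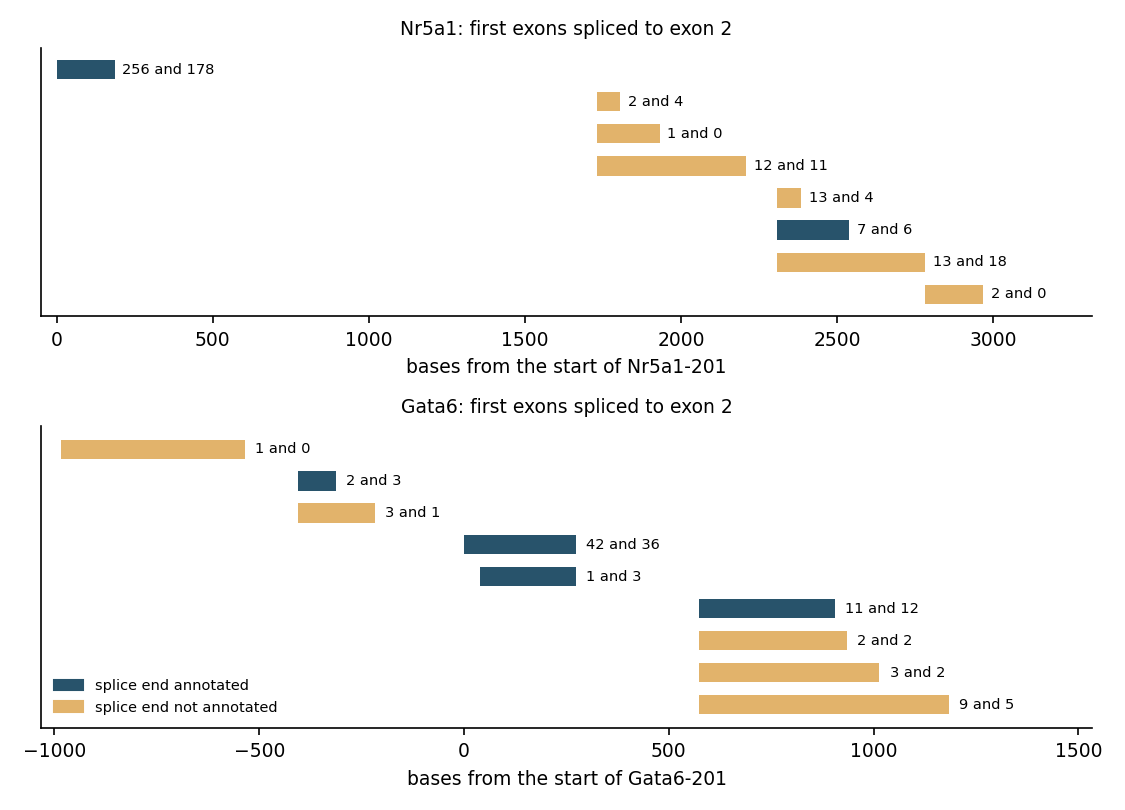
First exons spliced to exon 2 in Nr5a1 and Gata6, drawn to scale by distance in bases from the start of the main annotated transcript, with the reads of replicates 1 and 2 beside each bar and colour for splice ends that are annotated or not. In Nr5a1 256 and 178 reads use the annotated first exon and no other first exon exceeds 18 reads in either library, and in Gata6 the first exon that begins at the start of Gata6-201 and ends at its splice end has 42 and 36 reads.

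Inside the coding region, exon 3 of Nr5a1 ended at different places. This exon (38710410 to 38710551, 142 bases, all coding) encodes part of the DNA-binding domain. It is shown from the GENCODE reference transcript, which is of the C57BL/6J genome, since the choice of its end decides which bases stay in the message. Capitals mark the 60 bases that the shorter form lacks.
Nr5a1 exon 3: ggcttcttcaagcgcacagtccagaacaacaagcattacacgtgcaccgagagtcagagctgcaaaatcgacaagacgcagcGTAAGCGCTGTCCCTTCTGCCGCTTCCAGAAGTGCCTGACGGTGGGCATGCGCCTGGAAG
The annotated end was used in 304 of 323 reads of replicate 1 and 223 of 239 of replicate 2, or 94.1% (91.0 to 96.2) and 93.3% (89.4 to 95.8). A form 60 bases shorter had 7 and 5 reads, or 2.17% and 2.09%. The 60 bases are 20 codons and begin with GT, the usual first bases of an intron. A form 108 bases longer had 12 and 8 reads, or 3.72% and 3.35%. The sequence of the added bases was not read, so whether they hold a stop codon was not examined. Both lengths are multiples of 3, and both forms were found in both libraries at like shares. A form 19 bases shorter, which shifts the frame, had 0 and 3 reads.

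The last exon of Nr5a1 carried an additional intron in a few reads. It spans 38693479 to 38694127 (649 bases), starts with GT and ends with AG on the strand of the gene, and takes out the last 108 coding bases with the stop codon. It was removed in 1 of 399 spliced reads that reach the last exon in replicate 1, or 0.25% (0.04 to 1.41), and in 8 of 306 in replicate 2, or 2.61% (1.33 to 5.07). These intervals overlapped. The splice choices of Nr5a1 were examined after their values were seen and were not tested between libraries.

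Nr0b1 (ENSMUSG00000025056.4, chromosome X, 86191764 to 86195947, plus strand) had 87 and 72 reads, or 126 and 88.8 CPM. Replicate 1 was the higher library, and the intervals overlapped. The log2 ratio was −0.51 (standard error from counting 0.23), and the gene was not called (two-sided Fisher's exact test, adjusted p 0.198). Its message was uniform: 86 and 72 reads were Nr0b1-201, the only annotated transcript, and 1 read was a fragment. Because Nr0b1 is a known target of steroidogenic factor 1, its promoter is shown from the RefSeq table (GRCm38.p6, chrX:86191525-86191824, plus strand). Capitals mark AGGTCA, the core letters of the binding motif of that receptor.
Nr0b1 promoter: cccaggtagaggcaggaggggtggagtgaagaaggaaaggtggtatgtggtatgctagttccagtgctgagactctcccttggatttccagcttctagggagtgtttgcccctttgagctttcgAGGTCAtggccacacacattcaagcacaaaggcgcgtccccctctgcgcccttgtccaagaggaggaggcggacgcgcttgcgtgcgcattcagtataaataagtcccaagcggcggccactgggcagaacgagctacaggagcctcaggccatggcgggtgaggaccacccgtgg
The match begins 126 bases before the start that the RefSeq table uses. Searched on both strands, AGGTCA was in 5340 of 32851 promoters of 300 bases, or 16.3%. It was in 1 of the 6 promoters searched for 5 of the genes (Nr2f2, Cited2, Tcf21, Nr2f1 with 2 and Nr0b1). Promoters of the remaining genes are not part of this count of 6, whether or not the table lists them. The longer CAAGGTCA, which contains AGGTCA, was in 1.56% of all promoters and in 0 of these 6. A match of letters is a description and not a binding site.

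Gata6 was far above its relative Gata4. Gata6 (ENSMUSG00000005836.10, chromosome 18, 11052064 to 11085635, plus strand) had 83 and 77 reads, or 121 and 95.0 CPM, with overlapping intervals. Its log2 ratio was −0.34 (standard error from counting 0.23), and it was not called (adjusted p 0.441, two-sided Fisher's exact test). Gata4 (ENSMUSG00000021944.15, chromosome 14, 63198922 to 63271692, minus strand) had 2 reads in each library, or 2.91 and 2.47 CPM, below the level of 3 reads. For 1 read of Gata4 there were 41.5 reads of Gata6 in replicate 1 (exact 95% interval 11.1 to 348) and 38.5 in replicate 2 (10.3 to 324). The few reads of Gata4 were 1 of Gata4-201 and 1 of Gata4-202 in each library. These annotated forms differ by 3 bases at the start of a coding exon.

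The first exon of Gata6 was more mixed than that of Nr5a1. Of the reads with a first exon spliced to exon 2, 43 of 74 and 39 of 64 used exon 1 of Gata6-201, or 58.1% (46.7 to 68.7) and 60.9% (48.7 to 71.9). First exons that begin 574 bases downstream of its start had 25 and 21 reads, or 33.8% (24.0 to 45.1) and 32.8% (22.6 to 45). First exons further upstream had 6 and 4 reads. The downstream group split over 4 splice ends: the annotated end at 11053374 had 11 and 12 reads, and the unannotated end at 11053653 had 9 and 5. Of the 9 first exons, 8 were found in both libraries. Gata6-201 made up 54.7% and 61.0% of the complete forms and was not called in the test of leading isoforms. The form of 7 exons whose first exon ends at 11053653 is named a form with a new splice site in replicate 1 (9 reads) and ISM in replicate 2 (5 reads). Counted as complete in both, a choice made after seeing the data, it leaves Gata6-201 at 36 of 64 complete reads of replicate 2, or 56.3% (44.1 to 67.7).

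Wt1 (ENSMUSG00000016458.14, chromosome 2, 105126529 to 105173616, plus strand) was near the limit of detection, with 9 reads in replicate 1 and 4 in replicate 2, or 13.1 and 4.93 CPM. It had fewer than 20 reads and was not tested. Kidney podocytes and mesothelium are other known sources of Wt1 near the gland. Summed kidney markers were 36.3 and 9.87 CPM, lower in replicate 2 as Wt1 was, and the podocyte marker Nphs1 had 0 reads in replicate 1 and 1 in replicate 2. Mesothelium markers were 33.4 and 34.5 CPM with 4 of 6 found in both libraries. The part of other cells in the Wt1 level was not tested.

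Spliced reads of Wt1 showed both of its well known coding choices. Exon 5, of 51 bases, is either included or skipped, and the end of exon 9 either keeps or lacks 9 bases that encode the residues KTS between zinc fingers. The sequences around them are shown from GENCODE (mm10), with exon 5 and the 9 bases in capitals.
Wt1 exon 5: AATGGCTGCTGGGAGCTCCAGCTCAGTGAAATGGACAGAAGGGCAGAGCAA
Wt1 with KTS: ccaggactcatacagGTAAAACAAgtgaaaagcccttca
Wt1 without KTS: ccaggactcatacaggtgaaaagcccttca
The 9 bases were kept in 6 of 9 spliced reads of replicate 1 (66.7%, 35.4 to 87.9) and in 1 of 3 of replicate 2 (33.3%, 6.15 to 79.2). Exon 5 was included in 3 of 9 and 2 of 3. Reads that skipped exon 5 and kept the 9 bases numbered 5 in replicate 1 and 1 in replicate 2, and reads that included exon 5 and lacked them numbered 2 in each. In replicate 1, 1 read had both and 1 had neither. The depth does not allow a difference in these shares to be detected.

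Cited2 (ENSMUSG00000039910.10, chromosome 10, 17723218 to 17725674, plus strand), a cofactor that binds CBP and p300, had 116 and 142 reads, or 168 and 175 CPM. Of the 7 tested genes it had the log2 ratio nearest 0, at 0.06 (standard error from counting 0.18), and it was not called (adjusted p 0.972, two-sided Fisher's exact test). The spliced form Cited2-201 had 92 and 104 reads. The single-exon form Cited2-203, which keeps the intron, had 23 and 36 reads. Single-exon reads made up 19.8% (13.6 to 28.0) and 25.4% (18.9 to 33.1) of the gene, and no read of it was named incomplete or Genomic.

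Tcf21 (ENSMUSG00000045680.8, chromosome 10, 22817281 to 22820174, minus strand) had 74 and 61 reads, or 107 and 75.2 CPM. Replicate 1 was higher with overlapping intervals, and the log2 ratio of −0.51 (standard error from counting 0.25) was not called (adjusted p 0.249, two-sided Fisher's exact test). Tcf21-201 took 73 and 58 of its reads. Capsule and mesenchyme markers, which mark cells known to express Tcf21, had a median log2 ratio of 0.90 over 5 tested genes, in the other direction.

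The COUP-TF genes were, beside Cited2, the only ones of the 9 with more CPM in replicate 2. Nr2f2 (ENSMUSG00000030551.14, chromosome 7, 70351944 to 70366735, minus strand) had 31 and 46 reads, or 45 and 56.7 CPM, with a log2 ratio of 0.33. Nr2f1 (ENSMUSG00000069171.14, chromosome 13, 78188973 to 78199757, minus strand) had 19 and 29 reads, or 27.6 and 35.8 CPM, with a log2 ratio of 0.37. Neither was called (adjusted p 0.707 and 0.731, two-sided Fisher's exact test), and the direction turned for both with known models alone, to −0.15 for Nr2f2 and −0.43 for Nr2f1. Fragments held a large part of their reads. Without Genomic models, Nr2f1 kept 11 of 19 reads in replicate 1 and 11 of 29 in replicate 2. With known models alone Nr2f1 kept 11 and 9 reads, and Nr2f2 kept 13 of 31 and 13 of 46. Single-exon Genomic reads made up 8 of 19 and 18 of 29 reads of Nr2f1, against 11 and 8 reads of the full Nr2f1-201. In Nr2f2, 15 and 23 reads were a form of 2 exons that carries only the last intron, against 9 and 12 reads of the full Nr2f2-201. The ratio of Nr2f2 to Nr2f1 within a library was 1.63 (exact 95% interval 0.89 to 3.06) and 1.59 (0.98 to 2.62).

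Nr2f2 alone of the 9 genes had reads on the opposite strand that carried its own introns. Such reads numbered 31 in replicate 1 and 29 in replicate 2, against 27 and 35 spliced reads on its own strand. They made up 53.4% (40.8 to 65.7) and 45.3% (33.7 to 57.4) of all reads with an Nr2f2 intron. Of 7318 genes with at least 20 spliced reads, 165 had any such read, or 2.25%. Which Nr2f2 intron each opposite-strand read carries is not reported here, so intron 1 serves as an example. Its ends are shown on the strand of Nr2f2 (chr7:70359880-70359907 and chr7:70358271-70358298), with the first and last intron bases in capitals. These bases give the strand of a splice site.
Nr2f2 exon 1 into intron 1: agtgggcatgagacgggaagGTatcggc
Nr2f2 intron 1 into exon 2: tcctgcAGctgtacagagaggcaggatg
On the strand of the gene the intron runs from GT to AG, and read on the opposite strand it runs from CT to AC. With these reads added, Nr2f2 would hold 90.1 and 92.5 CPM, or 91.3 ± 1.73 CPM, in place of 50.9 ± 8.28 CPM. It would then lie beside Tcf21 in the order of levels. Single-exon reads on the opposite strand across Nr2f2 exons numbered 18 and 35, and the annotated opposite-strand neighbour B130024G19Rik had 7 and 7 reads. For the other genes, single-exon reads on the opposite strand numbered 5 and 15 across Nr5a1 and 5 and 12 across Cited2, and at most 1 in either library across the rest. Of annotated genes that overlap on the opposite strand, A830082K12Rik at Nr2f1 had 7 and 7 reads, 1010001N08Rik at Gata6 had 7 and 10, Nr5a1os had 0 and 2, and Gm10824 at Tcf21 had 0 and 1. Whether counting used the strand of the read is not given in the sources used here.

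**Figure D3:**
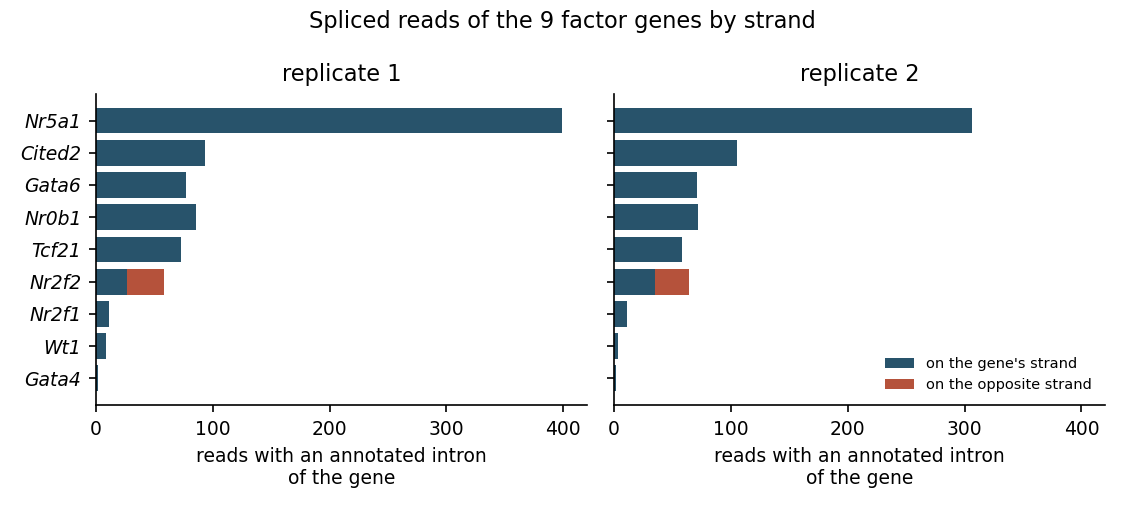
Reads that carry an annotated intron of each of the 9 genes (horizontal axis, in reads), in replicate 1 and replicate 2, split by strand. The only bars with an opposite-strand portion are those of Nr2f2, with 31 and 29 reads beside 27 and 35.

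Completeness of the reads varied widely among the 9 genes. Reads in models named Genomic or ISM made up 30.7% (26.7 to 35.1) of Nr5a1 in replicate 1 and 40.7% (35.9 to 45.7) in replicate 2. They were 54.8% and 69.6% of Nr2f2, 42.1% and 69.0% of Nr2f1, and 9.64% and 23.4% of Gata6. With the Gata6 form that is named differently in the libraries counted as complete in both, the share of Gata6 in replicate 2 was 16.9%. Cited2, Tcf21 and Gata4 had 0 such reads, Nr0b1 had 1 and Wt1 had 1. Over the 9 genes the share was 19.9% and 27.8%, beside 13.7% and 16.7% over all genes tested, where the median gene had 9.87% and 13%. Replicate 2 had the larger share in Nr5a1, Gata6, Nr2f1, Nr2f2 and Wt1, as it had over all genes. Complete forms of Nr5a1 numbered 320 and 227 reads, beside 462 and 383 reads in all. Complete here is the class of the model and not full length. For example, a form of 4 exons with a new splice site had 4 and 1 of these reads. Reads with a first exon spliced to exon 2 numbered 306 and 221. The RNA quality of the libraries is not given in the sources used here.

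**Figure D4:**
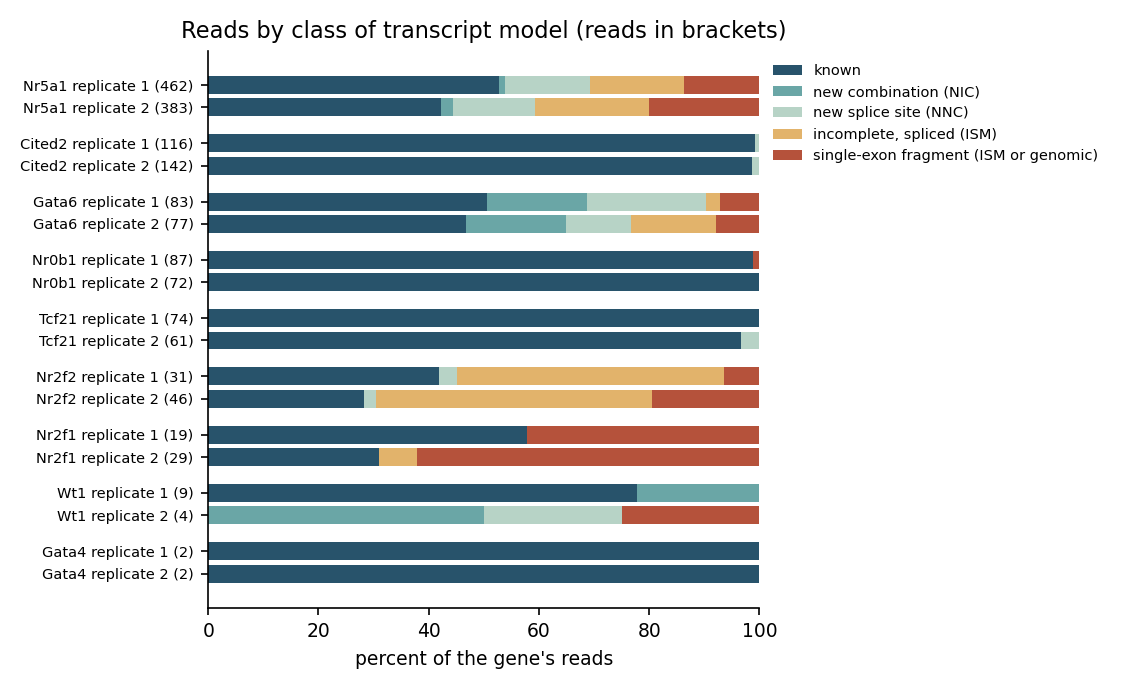
Share of each gene's reads (horizontal axis, percent) by class of transcript model, 1 bar per library with its reads in brackets. Nr0b1, Cited2 and Tcf21 consist almost wholly of known forms, and fragments and incomplete forms take 30.7% and 40.7% of Nr5a1 and more than that of Nr2f2 and Nr2f1.

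Between the libraries, 0 of the 7 tested genes were called, while 267 of 8276 tested genes were, or 3.23%. On the adjusted p alone 1 of the 7 passed, Nr5a1. An unadjusted p under 0.05 was found for 3 of the 7, namely Nr5a1, Nr0b1 and Tcf21, and for 1586 of all 8276 tested genes. The median log2 ratio of the 7 was −0.34, beside −0.10 over all genes tested, with 4 below 0 and 3 above. Of all called genes 70.0% were higher in replicate 2 (187 against 80), and with DESeq2 size factors 82.4% were (211 against 45). Those size factors moved the median of all genes up by 0.11, and Nr5a1 then had a log2 ratio of −0.40.

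Known target genes of Nr5a1 had a median log2 ratio of −0.45, and 13 of the 14 lay below 0, or 12 with TMM factors or DESeq2 size factors, a scaling added after seeing the data. Called was 1 of 14, the aldosterone synthase gene Cyp11b2, with 748 and 318 CPM (log2 ratio −1.23, adjusted p 9.78e-29 in the two-sided Fisher's exact test). On p alone 8 of 14 passed. Of all 8276 tested genes, 4866 lay below 0. The 6 medulla markers, which are outside the target list, had a median log2 ratio of −0.39. All 6 lay below 0, or 5 with DESeq2 size factors, and 4 of them passed on p alone. The most abundant targets were the steroid enzyme genes Cyp21a1 at 18259 and 9696 CPM, Cyp11a1 at 11664 and 11396 CPM, Hsd3b1 at 8179 and 4927 CPM and Cyp11b1 at 5370 and 3413 CPM. Cyp21a1, Hsd3b1 and Cyp11b1 passed on p, with log2 ratios of −0.91, −0.73 and −0.65. Cyp11a1 did not, with a log2 ratio of −0.03 (adjusted p 0.431, two-sided Fisher's exact test) that turned to 0.027 with TMM factors and 0.077 with DESeq2 size factors. Of the markers of other cells, the collagen gene Col1a1 was called at 381 and 800.4 CPM and the endothelial gene Pecam1 at 53.7 and 19.7 CPM. Pecam1 was 1 of 4 tested endothelium markers called. The 6 markers of that list summed to 585 and 499 CPM, and Kdr lay the other way at 5.81 and 23.4 CPM (adjusted p 0.0655, two-sided Fisher's exact test). The liver markers, 7 of 7 tested called, had a median of 5.85, and their part in the lower cortex values of replicate 2 was not tested.

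Other regulators of the cortex were each rarer than Nr5a1 in both libraries. Of 28 genes in this list, 15 had at least 20 reads and 0 were called, with a median log2 ratio of −0.23. Abundant members were the beta-catenin gene Ctnnb1 at 102 and 85.1 CPM, the early response receptor gene Nr4a1 at 82.8 and 43.2 CPM and the homeobox gene Meis1 at 46.5 and 37.0 CPM. Nr4a1 alone passed on p (adjusted p 0.033, two-sided Fisher's exact test), with a log2 ratio of −0.93. Zfpm1, which encodes the GATA cofactor FOG-1, had 22 and 37 reads, and Zfpm2, which encodes FOG-2, was at 0 reads in each library, where up to 4.36 and 3.70 CPM would go undetected. The mineralocorticoid receptor gene Nr3c2 also had 0 reads in both. Zfpm1, Zfpm2 and Nr3c2 were named after their values were seen.

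The closest relatives of the 9 genes differed widely in level. Nr2f6, the third COUP-TF related gene, had 353 and 342 reads, or 467 ± 64.3 CPM, more than Nr2f1 and Nr2f2 in each library. Nr5a2, the nearest relative of Nr5a1, had 1 and 0 reads. Nr0b2, the relative of Nr0b1 known from liver, had 35 and 24 reads. Gata2 had 91 and 109 reads and Gata3 35 and 23, both known from chromaffin and other cells, whereas Gata1 and Gata5 had 1 read in each library. Of the early growth response genes, whose zinc fingers resemble those of Wt1, Egr1 had 12 and 1 reads, Egr4 had 1 and 0, and Egr2 and Egr3 had 0. Cited4 had 37 and 21 reads and Cited1 had 3 and 4, both below Cited2 in each library. Among relatives of Tcf21, Tcf15 had 11 and 17 reads, Tcf24 1 and 6, Tcf23 1 and 0 and Msc 0 and 2. Of the 17 relatives 6 were tested and 0 called, with a median log2 ratio of −0.53, in which Cited4 had the most negative value at −1.04 (adjusted p 0.082, two-sided Fisher's exact test).

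**Figure D5:**
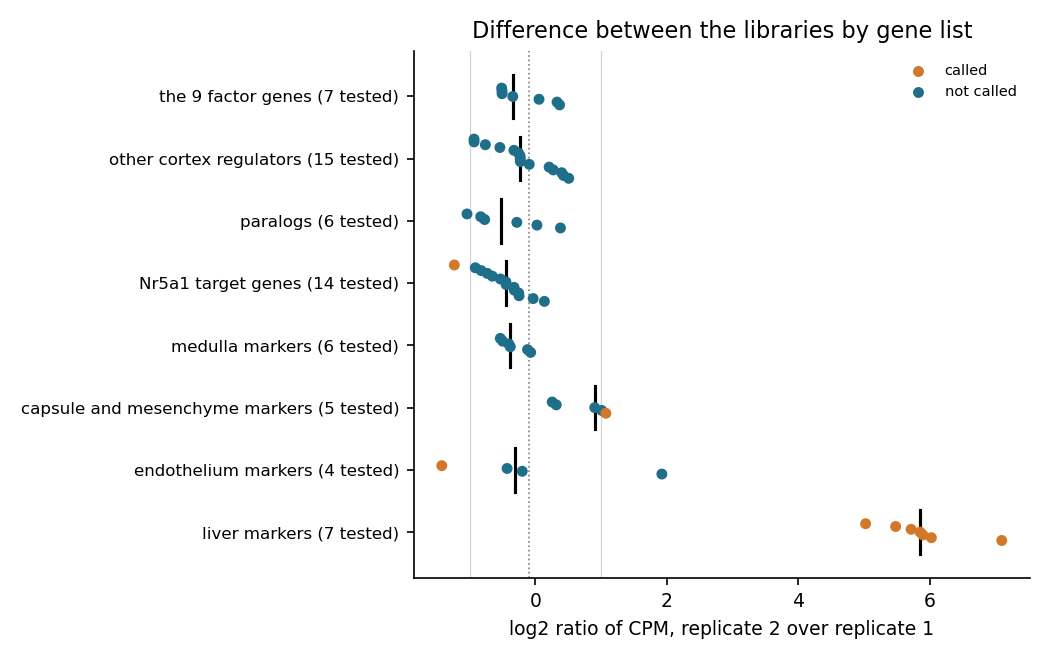
Log2 ratio of CPM of replicate 2 over replicate 1 (horizontal axis) for each tested gene of 8 lists, with 0.5 CPM added; short lines are list medians, the dotted line is the median of all genes, thin lines mark a ratio of 1 in size, and colour marks called genes. The 7 tested factor genes lie between −0.51 and 0.37, and all 7 liver markers lie above 5.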

How the data were processed

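Adrenal gland RNA of 1 group of 2 biological replicates was analysed. The deposited tables hold, for each transcript model, its number of long reads as raw counts, made by the authors from filtered alignments to mm10 with GENCODE M21, per the file headers and descriptions; model classes follow TALON's tags, and for aligner and versions the entry is: not given in the sources used here. Counts were summed over models of a gene and scaled to CPM of mouse reads, spike-ins left out; 688436 and 810818 reads limit precision. Two-sided Fisher's exact tests per gene used Benjamini-Hochberg adjustment over genes with at least 20 reads, with 0.5 CPM added for ratios; leading isoforms were tested with at least 50 complete reads in each library. Intervals (95%: Poisson, Wilson, Clopper-Pearson) and floors of 3 reads reflect counting error alone, because PCR copies cannot be told apart without molecular identifiers. Python 3.11.15, scipy 1.17.1, edgeR 4.0.16 (TMM) and DESeq2 1.42.0 (size factors) were used; the test was tested on simulated data. Members, gene lists and tests were chosen with earlier results of these data known. Named were all 9 genes, their models with at least 3 reads, the 4 most abundant and all called genes of the lists of targets and regulators, and every relative; the rule also took marker lists, which are mostly given in sum. Some genes of the lists are not reported here. Alternatives were other scalings, read minimums, added CPM, classes of models and left-out libraries. Sequences are from GENCODE M21 transcripts and RefSeq promoters.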

Additional observations from a re-analysis of the deposited data

Results flagged for a closer look

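Reads of opposite-strand models with an annotated intron of Nr2f2 lie outside the counts of the gene and exceed the level of 3 reads in both libraries, with 31 reads in replicate 1 and 29 reads in replicate 2. The other 8 genes had 0 such reads in both libraries. Of 7318 genes with at least 20 spliced reads, 6 had more reads on the opposite strand than on their own in both libraries, and Nr2f2 was not among them, with 29 against 35 in replicate 2. These reads were examined after earlier results were known, and their origin was not tested.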

How the results depend on the processing

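No paired analysis was possible because the series has 1 group. The number of the 9 genes called was 0 under TMM and DESeq2 size factors, read minimums of 10 and 0, 0.1 and 2 CPM added, and counts without Genomic models or of known models alone. Nr5a1 passed on p in each of these, with log2 ratios from −0.80 without Genomic models to −0.40 with DESeq2 size factors. The setting without Genomic models drops the 77 fragments of replicate 2 and keeps the 63 of replicate 1, which are named ISM. The direction turned for Nr2f1 without Genomic models (−0.20) and with known models alone (−0.43), and for Nr2f2 with known models alone (−0.15). Of the target genes, the direction of Cyp11a1 turned with TMM factors (0.027) and DESeq2 size factors (0.077). The genes called for isoform usage were 10, and 43 with incomplete and genomic models counted, the cause of which was not tested. The share of Genomic or ISM reads over the 9 genes was 23.9% and was 7.06% for Genomic models alone, which leaves out all ISM reads; without 1 library at a time it ranged from 19.9% to 27.8%, and the summed level ranged from 1006 to 1283 CPM. For levels of single genes, 13 alternative values moved by more than 1 SD of the libraries, 8 of them with known models alone. Without Genomic models and with known models alone, levels and ratios were scaled to the reads kept and not to all mouse reads. Moves of levels in these settings therefore include a change of scale. With known models alone Nr0b1 rose from 108 to 148 CPM, although it kept 86 of 87 and 72 of 72 reads. Depth limits Wt1 and Gata4, at 9 reads or fewer in each library.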
